A study of Bos taurus with 6 samples.

Results

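Cohesin is the protein ring that holds sister chromatids together, and shugoshins are the proteins that shield it from cleavage at centromeres. The genes described here are those for the ring subunits of meiotic and mitotic cohesin and for both shugoshins: SMC1A, SMC1B, SMC3, RAD21, REC8, STAG1, STAG2, STAG3, SGOL1 and SGOL2. They were chosen by name, as every row of the expression table that carries one of these symbols, and each of the 10 symbols had 1 row among 20707 gene rows. The genes and the lists used below were chosen with earlier results of these data known. Their counts beside those of all tested genes are therefore descriptions.

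RNA was measured in single bovine oocytes (Bos taurus) from abattoir ovaries. GV (germinal vesicle) oocytes were at the prophase arrest of meiosis, with an intact nucleus, and were taken at follicle aspiration. MII oocytes stood at metaphase of the second division after 24 h of maturation in vitro. No allele, drug or other treatment is named for either stage, and a separate label that describes every sample as matured in vitro was not used for stage. Each stage has 3 libraries, called GV14, GV14c and GV15, and MII14c, MII15 and MII15c. The letter c is in the names of GV14c, MII14c and MII15c, so stage and letter are not balanced. The main fit has stage alone. GV14c and MII15c match no sample title and were used by stage alone, and the titled samples GV15c and MII14 have no column of that name. The labels do not say whether libraries come from separate animals or are repeats of an oocyte, so n counts libraries and a p-value covers only the spread between them.

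A cohesin ring is built from an SMC1 protein, SMC3, a kleisin that closes the ring and a STAG protein bound to the kleisin. Somatic cells use SMC1A, RAD21 and STAG1 or STAG2, and germ cells add the meiotic forms SMC1B, REC8 and STAG3. Separase cuts the kleisin on chromosome arms in the first meiotic division, and shugoshin with the phosphatase PP2A keeps centromeric REC8 uncut until the second. In mammalian oocytes the cohesion laid down before birth has to last until ovulation, and its decay with age is linked to chromosome missegregation.

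The values are RPKM, reads scaled to gene model length and library size, and levels of different genes are compared on that scale. Depth recovered from the values themselves was 20.22 to 29.92 M reads in the GV libraries and 21.27 to 32.56 M in the MII libraries, and 1 RPKM of a 2 kb model is then 40.4 to 65.1 reads. All 10 oocyte markers checked (GDF9, BMP15, the zona pellucida genes and others) had a mean of at least 1 RPKM over all 6 libraries. FIGLA did so through GV alone, with means of 29.0 RPKM in GV and 0.477 in MII. The summed level of the oocyte markers ran from 6933 to 9957 RPKM in GV and from 2877 to 3786 in MII. Of 15 cumulus and granulosa markers, 5 (HAS2, PTGS2, STAR, GJA1 and CD44) reached a mean of 1 RPKM, with sums over the list of 106.1 to 179.4 RPKM in GV and 108.9 to 115.9 in MII, and PTX3, FSHR and AMH were below 0.1 in every library. Members of that list differed between stages in both directions without overlap: HAS2 went from 16.3 ± 4.06 to 59.5 ± 4.84 RPKM, STAR from 101.2 ± 34.2 to 35.4 ± 5.46 and CD44 from 7.03 ± 3.54 to 1.80 ± 0.857 (SD, n = 3). Of 3 blood markers, 2 were measured: HBB was at 0 throughout, and the sum of both was at most 0.13 RPKM. The part of these levels in the results below was not tested. Complementary DNA was primed on poly(A) tails, so each level combines how many transcripts there were with how well their tails were captured, and in a single oocyte these cannot be told apart. The library adapters were diluted 1 in 30 for GV14 and 1 in 10 for GV15 and 1 in 50 for MII14c and MII15, so among the columns with a title stage and dilution cannot be told apart. MII14, which has no column of its name, was diluted 1 in 30.

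Changes between stages are on the scale log2(RPKM + 1), MII minus GV, with the adjusted p of limma over the 8671 genes that average 1 RPKM or more and a threshold of 0.05. Of the 10 genes, 7 passed that filter, each with a mean above 1 RPKM in both stages. Of these 7, 4 rose (SMC3, RAD21, STAG1 and SGOL2), 0 fell and 3 were not called (SMC1A, SMC1B and SGOL1). At an unadjusted p under 0.05, 5 were higher, SGOL1 in addition, and 0 were lower. Over all tested genes 13.4% were called higher and 26.9% lower. The median log2 change was 0.85 over the 7 genes and -0.16 over all tested genes. In 5 of the 7 genes every MII library stood above every GV library and in 0 the reverse held, where such separation was found in 19.8% of tested genes in the upward direction and in 32.1% in the downward direction. REC8, STAG2 and STAG3 were below the filter.

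**Figure D1:**
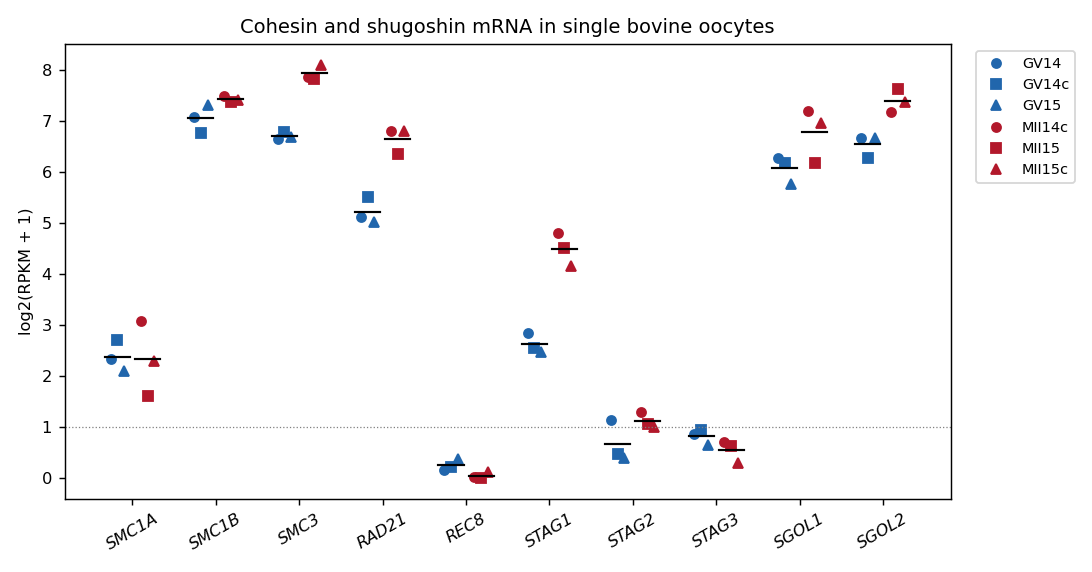
Level of each of the 10 genes as log2(RPKM + 1), with 1 point per library (blue for the 3 GV, red for the 3 MII libraries), a bar at the stage mean of these log values and a dotted line at 1 RPKM. SMC3, RAD21, STAG1, SGOL2 and SMC1B have every MII point above every GV point, and within each library REC8 lies below the other genes.

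SMC3 is the subunit found in every form of cohesin, and its head is the site of acetylation by ESCO1 and ESCO2. Its gene model lies on chromosome 26 at 31387332 to 31425424 of the plus strand in the authors' deposited annotation, whose build is not given in the sources used here, with 29 coding exons and 1217 codons of protein. SMC3 was measured at 99.6, 110.3 and 101.7 RPKM in GV14, GV14c and GV15, and at 234.2, 226.2 and 275.4 in MII14c, MII15 and MII15c. The 3 GV libraries were close together and all MII libraries were more than 100 RPKM above them. The mean went from 103.9 ± 5.63 to 245.3 ± 26.4 RPKM (SD, n = 3), a 2.36-fold rise, with a log2 change of 1.23 (SE 0.19, limma adjusted p = 0.00123). In GV it stood above 96.6% of all rows or more, and in MII its level was the highest of the cohesin genes.

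SMC1B, the meiotic partner of SMC3, made up nearly all of the SMC1 message at both stages. Its model is on chromosome 5 at 116463997 to 116545939 of the minus strand and has 26 coding exons. SMC1B was at 135.5, 107.5 and 159.4 RPKM in GV14, GV14c and GV15, against 180.4, 164.2 and 170.5 in MII14c, MII15 and MII15c. Although the stages did not overlap, the highest GV library was within 5 RPKM of the lowest MII library. The mean was 134.1 ± 26.0 RPKM in GV and 171.7 ± 8.14 in MII (SD, n = 3), and the log2 difference of 0.37 did not pass (95% interval -0.10 to 0.84, limma adjusted p = 0.189).

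SMC1A, the mitotic partner, is encoded on the X chromosome at 96217983 to 96252843 of the minus strand, with 26 coding exons as well. SMC1A was low, at 4.03, 5.56 and 3.26 RPKM in GV14, GV14c and GV15 and at 7.41, 2.05 and 3.93 in MII14c, MII15 and MII15c. The 2 extremes were both MII libraries, and the GV values lay between them. The means were 4.28 ± 1.17 and 4.46 ± 2.72 RPKM (SD, n = 3), and the log2 difference was -0.05 as deposited but 0.16, 0.37 and 0.05 after median-ratio, quantile and TPM scaling (95% interval as deposited -0.98 to 0.88, limma adjusted p = 0.929). The interval holds changes of almost 1 log2 unit either way.

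RAD21, the kleisin of mitotic cohesin and a target of separase, is on chromosome 14 at 49558483 to 49588679 of the plus strand. RAD21 was at 33.7, 44.7 and 31.6 RPKM in GV14, GV14c and GV15 and at 111.0, 81.1 and 110.7 in MII14c, MII15 and MII15c. The lowest MII library was well above the highest GV library. The mean rose 2.75-fold, from 36.7 ± 7.06 to 100.9 ± 17.2 RPKM (SD, n = 3), with a log2 change of 1.44 (SE 0.24, limma adjusted p = 0.00164). A separate row with the antisense name RAD21-AS1 was at 19.9, 11.5 and 53.5 RPKM in the GV libraries. It was at 1.18, 4.16 and 2.50 RPKM in the MII libraries. In the authors' deposited annotation the RAD21 model overlaps no gene on the opposite strand.

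REC8, the meiotic kleisin, was near the limit of detection. Its model is on chromosome 10 at 20810559 to 20816425 of the minus strand, has 19 coding exons and shares 47 nt with a gene on the opposite strand, and whether reads were counted by strand is not given in the sources used here. REC8 was listed at 0.119, 0.161 and 0.293 RPKM in GV14, GV14c and GV15, and at 0.013, 0 and 0.085 in MII14c, MII15 and MII15c. At the recovered depths these are about 9, 11 and 15 reads in the GV libraries and 1, 0 and 7 in the MII libraries. A count of 0 in MII15 allows up to 3 reads, or 0.0557 RPKM. Every GV library was above every MII library, but the level was below the filter. Fitted with no filter, the log2 difference was -0.20 (SE 0.066) with a limma adjusted p of 0.141. In the authors' deposited annotation 36 reads are credited to this gene and 0 of them are spliced, which allows a spliced share of up to 8.33%.

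STAG1 had the largest log2 change of the 7 tested genes. STAG proteins bind the kleisin and are needed for the ring to stay on chromatin, and STAG1 is the form tied to telomere cohesion in somatic cells. The model covers chromosome 1 from 133655900 to 134030690 on the plus strand and has 33 coding exons. STAG1 was at 6.19, 4.89 and 4.52 RPKM in GV14, GV14c and GV15 and at 26.9, 21.7 and 16.9 in MII14c, MII15 and MII15c. Even the lowest MII library was more than 2 times the highest GV library. The mean rose 4.21-fold, from 5.20 ± 0.875 to 21.9 ± 4.998 RPKM (SD, n = 3), a log2 change of 1.87 (SE 0.28, limma adjusted p = 0.0011). That change was larger than those of 99.6% of tested genes, against 97.9% for RAD21, 95.2% for SMC3 and 86.7% for SGOL2.

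STAG2, the X-linked STAG protein of centromeric cohesion in somatic cells, has its model at 7890548 to 8020077 of the plus strand. STAG2 was at 1.19, 0.391 and 0.315 RPKM in GV14, GV14c and GV15 and at 1.45, 1.07 and 1.00 in MII14c, MII15 and MII15c. GV14 lay inside the MII range, so the stages overlapped. The mean was 0.633 ± 0.486 RPKM in GV and 1.17 ± 0.240 in MII (SD, n = 3), and with no filter the log2 difference was 0.45 (SE 0.27, limma adjusted p = 0.433).

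STAG3, the meiotic STAG protein, is on chromosome 25 at 36741126 to 36770974 of the minus strand, wholly inside the span of a gene on the opposite strand, so without strand its reads cannot be told from that gene's where exons coincide. STAG3 was at 0.827, 0.919 and 0.566 RPKM in GV14, GV14c and GV15 and at 0.641, 0.549 and 0.225 in MII14c, MII15 and MII15c. MII15c was the lowest library and MII14c lay inside the GV range. The mean was 0.771 ± 0.183 RPKM in GV and 0.472 ± 0.219 in MII (SD, n = 3), and with no filter the log2 difference was -0.27 (SE 0.17, limma adjusted p = 0.438).

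Both shugoshins were abundant at both stages, and 1 of the 2 passed the test. SGOL2 is the shugoshin that protects REC8 at centromeres in mouse oocytes, and its model is on chromosome 2 at 89485550 to 89514866 of the plus strand. SGOL2 was at 101.2, 76.9 and 101.3 RPKM in GV14, GV14c and GV15 and at 144.8, 197.3 and 164.7 in MII14c, MII15 and MII15c. No MII library came down to a GV level. The mean rose 1.81-fold, from 93.1 ± 14.03 to 168.9 ± 26.5 RPKM (SD, n = 3), a log2 change of 0.85 (SE 0.22, limma adjusted p = 0.0132). Without GV14c and MII15c, the columns that match no title, the change was 0.73 and the call was lost (limma adjusted p = 0.111).

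SGOL1 protects mitotic centromeres from loss of cohesin in prophase. Its model lies on chromosome 1 at 44946904 to 44965530 of the minus strand. SGOL1 was at 76.6, 71.3 and 53.4 RPKM in GV14, GV14c and GV15 and at 145.3, 71.9 and 124.7 in MII14c, MII15 and MII15c. MII14c and MII15c stood above all GV libraries, and MII15 fell inside the GV range. The mean was 67.1 ± 12.2 RPKM in GV and 114.0 ± 37.9 in MII (SD, n = 3), and the log2 difference of 0.71 missed the threshold (95% interval 0.05 to 1.37, limma adjusted p = 0.0801). Without MII15 the change was 1.01 and passed (limma adjusted p = 0.0109), and it passed under 4 other alternatives.

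**Figure D2:**
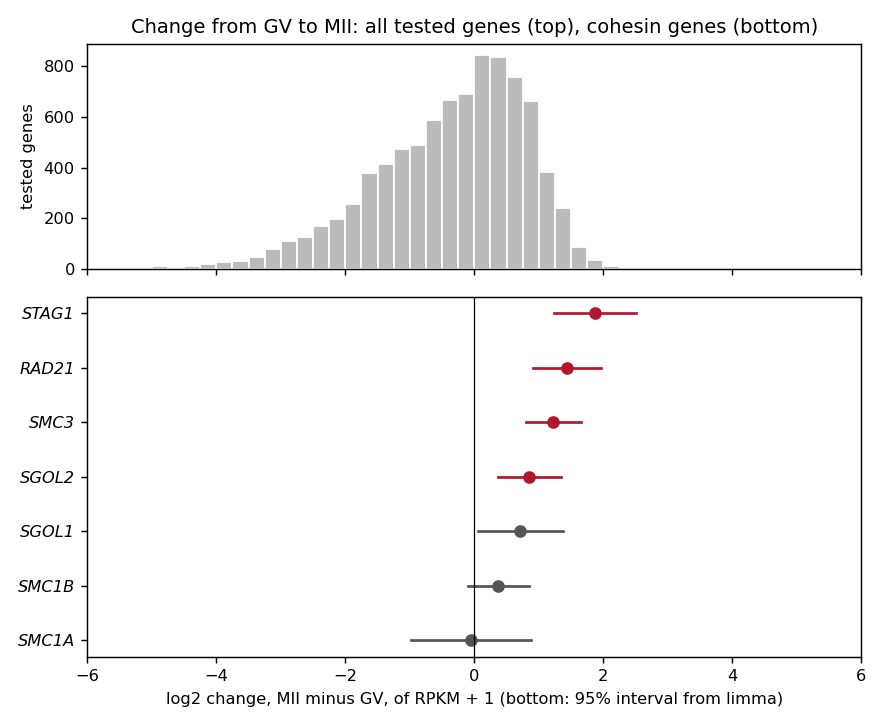
Log2 change from GV to MII of the 7 tested genes with its 95% interval, on the scale log2(RPKM + 1) (bottom, red where called), below a histogram of the change over all 8671 tested genes (top). STAG1, RAD21, SMC3 and SGOL2 are the called genes, and the median over all tested genes is -0.16.

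SMC3, RAD21, STAG1 and SGOL2 also passed the test after median-ratio, quantile and TPM scaling of the libraries. The median change over all tested genes was -0.16 in the deposited RPKM, 0.05 with median-ratio, 0.22 with quantile and -0.07 with TPM scaling. Relative to that median, STAG1 was higher in MII by 1.98 to 2.18 on the log2 scale over those 4 scalings, RAD21 by 1.46 to 1.66, SMC3 by 1.23 to 1.46 and SGOL2 by 0.84 to 1.08. SGOL1 was higher by 0.71 to 0.94, SMC1B by 0.35 to 0.60 and SMC1A by 0.11 to 0.15 relative to the same median.

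The order of levels differed between the stages. In GV it ran SMC1B, SMC3, SGOL2, SGOL1, RAD21, STAG1, SMC1A, STAG3, STAG2, REC8. SMC1B overlapped with SMC3, SMC3 with SGOL2, STAG1 with SMC1A and STAG3 with STAG2. The other neighbours, SGOL2 and SGOL1 among them, were apart in all libraries. In MII it ran SMC3, SMC1B, SGOL2, SGOL1, RAD21, STAG1, SMC1A, STAG2, STAG3, REC8. There SMC3 was above SMC1B in every library, SMC1B to RAD21 overlapped from neighbour to neighbour, and from RAD21 downward no neighbours overlapped. The 5 abundant genes, SMC1B, SMC3, RAD21, SGOL1 and SGOL2, stood above 90.7% to 99.0% of all rows in each library, and STAG2 and STAG3 above 46.8% to 65.9%.

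Since RPKM is per length, the germline and somatic forms of a subunit can be set side by side within a library. Such shares also depend on tail capture and on the gene models. The genomic distance from coding end to transcript end ran from 173 nt for REC8 to 2002 nt for STAG1. SMC1B was 97.1%, 95.1% and 98.0% of the SMC1 sum in GV14, GV14c and GV15 and 96.1%, 98.8% and 97.7% in MII14c, MII15 and MII15c, so the stages overlapped. REC8 was at most 0.920% of the sum of RAD21 and REC8 in any library. STAG1 was 75.4%, 78.9% and 83.7% of the STAG sum in the GV libraries and 92.8%, 93.1% and 93.3% in the MII libraries, with no overlap. STAG3 was 10.1%, 14.8% and 10.5% of that sum in GV and 2.21%, 2.36% and 1.24% in MII. The level of STAG3 itself overlapped between the stages, while STAG1, the largest part of the sum, rose. The sum of the 3 STAG messages went from 6.60 ± 1.45 to 23.5 ± 5.43 RPKM (SD, n = 3).

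The ratio of 2 paralogs within a library was tested with a two-sided exact permutation test, which cannot give less than 0.1 for 3 against 3, over 4 of 5 pairs chosen. The log2 ratio of STAG3 to STAG2 was 0.52 ± 0.93 in GV and -1.43 ± 0.64 in MII (SD, n = 3, exact p = 0.1, adjusted 0.2). That of STAG1 to STAG2 was 3.29 ± 0.80 and 4.21 ± 0.13 (SD, n = 3, exact p = 0.1, adjusted 0.2). For SMC1B to SMC1A it was 4.99 ± 0.67 and 5.46 ± 0.86 (SD, n = 3, exact p = 0.5, adjusted 0.667). SGOL2 to SGOL1 gave 0.48 ± 0.41 and 0.62 ± 0.75 (SD, n = 3, exact p = 0.8, adjusted 0.8). REC8 to RAD21 had no ratio without a pseudocount, since REC8 was listed at 0 in MII15. With a pseudocount of 1 its log2 ratio was -4.97 ± 0.32 in GV and -6.61 ± 0.22 in MII (SD, n = 3, exact p = 0.1, not adjusted). REC8 was at most 0.293 RPKM, so that ratio mostly follows the level of RAD21. No pair could pass in this design. Of the 4 pairs tested without a pseudocount, those with STAG2 reached the smallest p it can give. STAG2 was below 1.5 RPKM in every library, and STAG3 was below 1 RPKM.

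Ring subunits can also be set against each other. SMC3 over the sum of SMC1A and SMC1B was 0.714, 0.975 and 0.625 in GV14, GV14c and GV15 and 1.25, 1.36 and 1.58 in MII14c, MII15 and MII15c. In RPKM, SMC3 was thus below the SMC1 sum in every GV library and above it in every MII library. SMC3 over the sum of RAD21 and REC8 was 2.94, 2.46 and 3.19 in GV and 2.11, 2.79 and 2.49 in MII, with overlap. SMC3 over the STAG sum was 12.1, 17.8 and 18.8 in GV and 8.07, 9.70 and 15.2 in MII, also with overlap. At both stages the STAG sum was thus the lowest in RPKM among the parts of the ring. The shugoshin sum over the same kleisin sum was 5.25, 3.30 and 4.86 in GV and 2.61, 3.32 and 2.61 in MII, which overlapped at the edge.

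**Figure D3:**
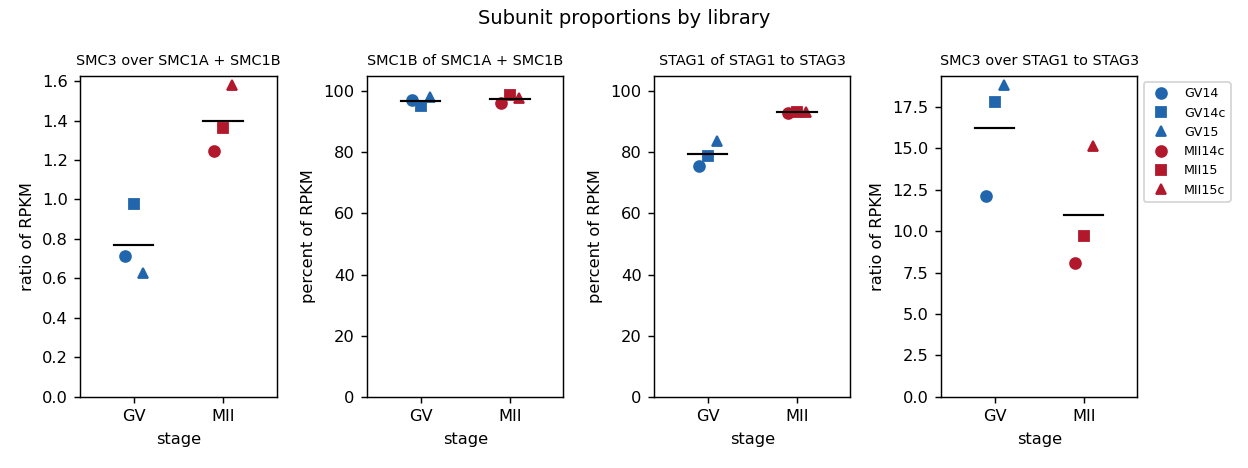
SMC3 over the SMC1 sum, SMC1B as a percent of the SMC1 sum, STAG1 as a percent of the STAG sum and SMC3 over the STAG sum, computed from RPKM, with 1 point per library and a bar at the mean of 3. STAG1 moves from 75.4% to 83.7% of the STAG sum in GV to 92.8% to 93.3% in MII, and SMC1B stays above 95% of the SMC1 sum.

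The genes whose profile over the 6 libraries was most like a member's were found by the distance between log2(RPKM + 1) profiles centred on their means, over all tested genes. For SMC3, the most abundant of the genes described here by the mean over all 6 libraries, they were PHF6, a PHD finger protein, at a distance of 0.17, C5orf34 at 0.17 and RNF19B at 0.18. For STAG1, the gene with the largest change, they were SLC44A5 at 0.30, YAP1 at 0.31 and FASTKD3 at 0.48. RAD21 was the nearest cohesin gene to both, at 0.47 from SMC3 with 159 other genes nearer, and at 0.93 from STAG1 with 160 nearer.

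Genes that load, lock, release and cut cohesin were read from a list of 12, of which 11 were measured and ESPL1 (separase) was not analysed here. Of the 10 that passed the filter, 7 rose, 1 fell and 2 were not called, where 13.4% of all tested genes were called higher and 26.9% lower. The median log2 change was 1.08 against -0.16 over all tested genes. As the list was chosen with earlier results of these data known, these counts are no test of an excess. The risers were both SMC3 acetyltransferases ESCO1 and ESCO2, the SMC3 deacetylase HDAC8, the release factor WAPAL, its ring-bound partners PDS5A and PDS5B, and the separase inhibitor securin, PTTG1. The single fall was in MAU2, which loads cohesin together with NIPBL. Leaving out both columns without a title left 2 rises, ESCO2 and HDAC8, and 0 falls, while over all genes the calls went from 1162 higher and 2329 lower to 357 and 1286. The log2 differences of the genes that lost their call in that setting were 1.23 for ESCO1, 1.05 for PDS5A, 1.13 for PDS5B, 0.70 for WAPAL and 0.87 for PTTG1 (limma adjusted p = 0.0597 to 0.168). RAD21L1, the other germline kleisin, was below the filter at 0.378 ± 0.585 RPKM in GV and 0.281 ± 0.199 in MII (SD, n = 3).

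HDAC8, which recycles acetylated SMC3, went from 4.86 ± 1.23 to 21.7 ± 1.85 RPKM (SD, n = 3), a log2 change of 1.97 (SE 0.28, limma adjusted p = 0.000775). ESCO2 went from 128.1 ± 25.2 to 330.8 ± 73.5 RPKM (SD, n = 3), a log2 change of 1.36 (limma adjusted p = 0.00241), and ESCO1 from 5.73 ± 1.03 to 15.1 ± 0.572 RPKM (SD, n = 3), a change of 1.27 (limma adjusted p = 0.00499). Of the pair, ESCO2 was therefore the more abundant by more than 20 times per length in the means of both stages, though not in every library. ESCO2 has 2 rows with its symbol, and the row of the highest mean was used. PDS5A went from 11.97 ± 2.10 to 29.5 ± 4.21 RPKM (SD, n = 3) and PDS5B from 8.63 ± 0.544 to 21.5 ± 3.68 (SD, n = 3), log2 changes of 1.24 and 1.21 (limma adjusted p = 0.00452 and 0.00524). PDS5A and PDS5B bind the kleisin and take part in both release and protection of the ring.

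WAPAL, the unloading factor, rose by 0.95 on the log2 scale (limma adjusted p = 0.0199), and its level went from 26.2 ± 6.10 to 51.3 ± 10.4 RPKM (SD, n = 3). PTTG1, which has 3 rows with its symbol so that reads may be shared among copies, rose by 0.87 from 4825 ± 886 to 8804 ± 1460 RPKM (SD, n = 3, limma adjusted p = 0.0201). NIPBL was at 23.4 ± 6.79 RPKM in GV and 32.1 ± 10.5 in MII (SD, n = 3, limma adjusted p = 0.330), and MAU2 fell by 1.33 on the log2 scale, from 6.19 ± 3.53 to 1.82 ± 1.10 RPKM (SD, n = 3, limma adjusted p = 0.0415). CDCA5, sororin, which guards the ring against WAPAL, was at 4.34 ± 2.35 and 5.04 ± 3.22 RPKM (SD, n = 3, limma adjusted p = 0.917). The MAU2 call was lost in 11 of 17 alternatives, among them leaving out any 1 library but MII14c (limma adjusted p = 0.0552 to 0.128). The WAPAL call was lost in 5 of 18, including without GV14c, MII14c or MII15c (0.0548 to 0.0771), and the PTTG1 call in 6 of 18, including without GV14, MII15 or MII15c (0.0517 to 0.0842).

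**Figure D4:**
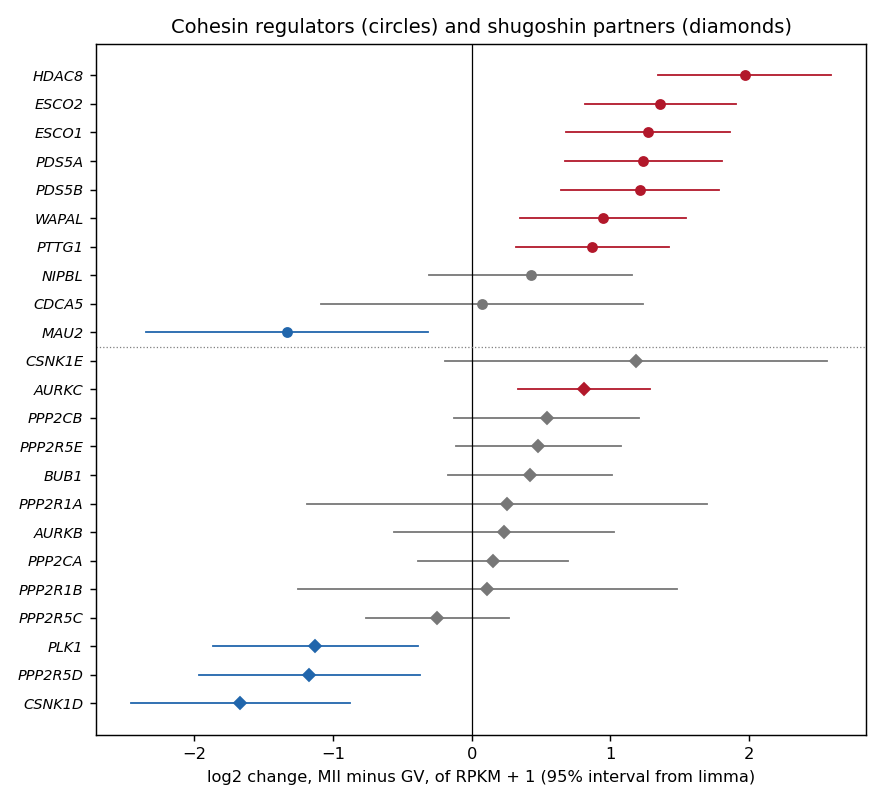
Log2 change from GV to MII with its 95% interval, on the scale log2(RPKM + 1), of the 10 tested cohesin regulators (circles) and the 13 tested shugoshin partners of the protection list (diamonds), red where called higher, blue where called lower and grey where not called. HDAC8 is at the top with 1.97 and CSNK1D at the bottom with -1.67.

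The protection list held 18 genes for PP2A with its B56 subunits and for the kinases and recruiters that act on shugoshin or on the kleisin, and 16 were measured (INCENP and MEIKIN were not analysed here). Of 13 tested, 1 rose, 3 fell and 9 were not called, against the same 13.4% and 26.9% over all tested genes, so neither share stands far from the background. The median log2 change was 0.24. The riser was AURKC, the germline Aurora kinase, at 235.6 ± 23.0 RPKM in GV and 417.1 ± 82.1 in MII (SD, n = 3), a change of 0.81 (limma adjusted p = 0.0146). Falls were seen for CSNK1D, a casein kinase of the family that phosphorylates REC8, from 9.25 ± 3.0 to 2.19 ± 0.743 RPKM (SD, n = 3, log2 change -1.67, limma adjusted p = 0.00533), for PPP2R5D, a B56 subunit, from 2.70 ± 0.983 to 0.645 ± 0.471 RPKM (SD, n = 3, log2 change -1.17, limma adjusted p = 0.0271), and for PLK1, a kinase of cohesin removal, from 3.37 ± 0.956 to 0.990 ± 0.378 RPKM (SD, n = 3, log2 change -1.13, limma adjusted p = 0.0235). All 3 fell to low levels. PPP2R5D and PLK1 averaged under 1 RPKM in MII, so they passed the filter only through their GV levels. AURKC has 2 rows with its symbol and CSNK1D has 4. Calls on PLK1 and PPP2R5D were each lost in 7 of 17 alternatives, also when GV14, GV14c, MII15 or MII15c was dropped, which left 1 fall in the list, CSNK1D. The call on AURKC was lost in 4 of 18, including without GV14 or MII15c, which left 0 rises. Without both untitled columns 0 of the list fell.

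**Figure D5:**
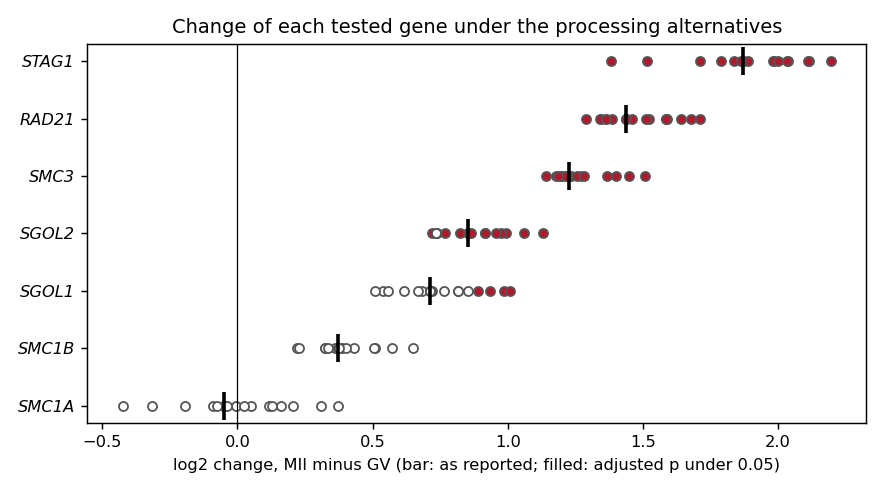
Log2 change from GV to MII of the 7 tested genes on the log2(RPKM + 1) scale or that of the alternative, with a black bar for the value as reported, 1 point per alternative processing, and filled points where the limma adjusted p is under 0.05. SMC3, RAD21 and STAG1 stay called in all 18 alternatives, and SMC1A lies on both sides of 0.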

How the data were processed

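Single-oocyte poly(A)-primed libraries were read as single 50-base reads per the labels' protocols. The authors deposited RPKM per Ensembl gene for 6 library columns, and the submitters' processing notes, for the authors' own work, name DESeq without a role. Aligner, counter, strand setting and build: not given in the sources used here. Positions of gene models and the reads credited to each model are from the authors' deposited annotation.

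Stage came from the titles, and from the column name for the 2 columns without a title. RPKM were tested with limma 3.58.1 (R 4.3.3; lmFit, eBayes with trend) on log2(RPKM + 1) over genes averaging 1 RPKM or more, Benjamini-Hochberg adjusted, threshold 0.05. Depth was recovered from gene models of coding sequence alone, from 155 to 369 values of under 12 reads per library, which all lay within 0.1 reads of a whole number. Read floors cover counting error only, as reads carry no molecular identifiers, and limma intervals cover the spread between libraries. All 10 symbols matched RefSeq names, and no coordinates were taken from there. The genes and lists were chosen with earlier results of these data known. Named were all 10 genes, the listed regulators and every list gene that passed.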

Additional observations from a re-analysis of the deposited data

How the results depend on the processing

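SMC3 (log2 change 1.14 to 1.51), RAD21 (1.29 to 1.71) and STAG1 (1.38 to 2.20) kept their calls in all 18 alternatives. The count of cohesin and shugoshin genes higher in MII was 3 to 5. SGOL2 lost its call only without both untitled columns (0.73). SGOL1 passed with median-ratio scaling (0.99), quantile normalisation (0.94), library weights (0.82), the replicate block (0.89) and without MII15 (1.01), and SMC1B passed in none (0.22 to 0.65). SMC1A turned positive with median-ratio scaling (0.16), quantile normalisation (0.37), TPM (0.0505), library weights (0.0238), the replicate block (0.21) and without both untitled columns (0.13), and leaving out 1 library gave -0.42 to 0.31. CDCA5 turned negative with the letter c as a term (-0.37) and ran from -0.28 to 0.63 without 1 library. The change in log2 ratio of SGOL2 to SGOL1 ran from -0.28 (without MII15) to 0.45 without 1 library, and that of SMC1B to SMC1A from 0.04 (without MII15) to 0.90. STAG1 to STAG2 went from 0.93 to 0.47 without GV14 and 1.42 with a pseudocount of 1, and STAG3 to STAG2 from -1.95 to -0.72 with that pseudocount.

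Regulators higher in MII numbered 2 without both untitled columns. Regulators lower numbered 0 with a pseudocount of 0.1, no filter, a mean of at least 5 RPKM, quantile normalisation, TPM, the replicate block and without both untitled columns, and 0 to 1 without 1 library. Protection genes higher numbered 0 with no filter, 3 with median-ratio scaling, 4 with quantile normalisation, 4 with library weights and 0 to 2 without 1 library. Protection genes lower numbered 1 with no filter, 1 at 5 RPKM, 1 with quantile normalisation, 0 without both untitled columns and 1 to 3 without 1 library. The cause was not tested. Over all genes, library weights gave 2262 higher and 3220 lower against 1162 and 2329, and quantile normalisation 2133 and 1777.

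The replicate block used the number 14 or 15 in the names, which is not stated to mark a shared batch: deviations of same-numbered libraries correlated at 0.33 for GV14c with MII14c and 0.43 for GV15 with MII15, but at -0.01 for GV14 with MII14c and -0.23 for GV15 with MII15c. Of other-numbered pairs, GV14c with MII15c gave 0.26 and GV14 with MII15 gave 0.07. GV14c with MII15 gave -0.41, GV15 with MII14c -0.38 and GV14 with MII15c -0.10. Between stages, every pair alike in the letter c, with or without it, was positive, the same-numbered 0.33 and 0.43 among them. Every pair unlike in that letter was negative. The cause was not tested. A fit of stage with the letter c, in place of the block, called 1468 genes higher and 2975 lower. In that fit 4 of the cohesin and shugoshin genes were higher, and the log2 change was -0.31 for SMC1A and -1.71 for MAU2. With the block 5 of the genes were higher in MII, against 4. Depth leaves REC8, at 0 to 15 reads, without a usable change.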

Other observations

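The genomic distance from the end of the coding sequence to the end of the transcript differed among the 10 genes in the authors' deposited annotation, and this was noticed after values were seen. It was 1831 nt for RAD21, 2002 for STAG1, 1623 for STAG2, 1747 for SGOL1 and 1911 for SGOL2. For SMC1A it was 237 nt, for SMC1B 174, for SMC3 337, for REC8 173 and for STAG3 375, against a median of 792 nt over 8416 tested genes. Over tested genes the median log2 change from GV to MII was -0.49 where that distance was under 400 nt (2702 genes, 7.85% called higher, 35.7% lower). It was -0.25 from 400 to under 1500 nt (3177 genes, 12.6% and 28.5%) and 0.21 from 1500 nt (2537 genes, 20.8% and 15.1%). The risers RAD21, STAG1 and SGOL2 are in the longest class, as are SGOL1, which was not called, and STAG2, which was not tested. SMC3, with 337 nt, is a riser in the shortest class, and REC8, STAG3, SMC1A and SMC1B, in the same class, were not called or not tested. These values are descriptions, and no test of them was made.

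In the same annotation, the share of reads credited as spliced was 6.48% of 47901 for SMC3, 5.17% of 23890 for SMC1B, 5.78% of 9957 for STAG1 and 3.67% of 10280 for RAD21. It was 2.43% of 23233 for SGOL1 and 0.47% of 77289 for SGOL2, where the median over 17547 genes with at least 30 reads was 3.45%. SGOL2 thus had the smallest spliced share of the 9 genes with any spliced read.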
